A study of Mus musculus with 12 samples.

Results

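The comparison described here sets mouse liver cells at the end of a conversion from hepatocyte toward bile duct cell against cells partway through it, and covers 6 of the 12 RNA-seq libraries of the study, 3 full and 3 intermediate. The libraries were chosen by their titles and sorted surface markers, not by any measured value. All mice were labelled WT, received AAV8-TBG-Cre, and were then fed 0.1% DDC (3,5-diethoxycarbonyl-1,4-dihydrocollidine) for 8 weeks. TBG is a promoter active in hepatocytes, so Cre is made there and EGFP marks hepatocytes and the cells derived from them. A rare non-hepatocyte that took up the virus would carry the same label. DDC is a diet toxin that injures bile ducts. Intermediate cells were sorted as EGFP-positive, Cd24-positive and Epcam-negative, and full cells as EGFP-positive, Cd24-positive and Epcam-positive, so both groups share the virus, the diet and the Cd24 gate and differ in the Epcam gate. The other groups serve as reference points: early cells carried EGFP with neither surface marker, and biliary epithelial cells (BEC) were EGFP-negative and Epcam-positive, 3 libraries each. The labels do not say which mouse each library came from, or whether replicates were separate mice, so p-values measure the spread between these samples, which may be technical. In bulk RNA from sorted cells, fewer cells of a type and less RNA per cell cannot be told apart.

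Hepatocytes and the cholangiocytes that line bile ducts arise from a common embryonic progenitor, and adult hepatocytes can take on biliary traits when ducts are injured. Hepatocytes secrete plasma proteins, break down amino acids and detoxify drugs, whereas cholangiocytes form a tight, ciliated epithelium on a laminin basement membrane that modifies bile by moving chloride, bicarbonate and water. Epcam encodes a surface adhesion protein of simple epithelia that is present on cholangiocytes and absent from resting adult hepatocytes, and Cd24a encodes a small glycosylphosphatidylinositol-anchored protein carried by ductal progenitors.

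Total counts ranged from 15112893 to 17346468 in the intermediate libraries and from 18400883 to 19731887 in the full libraries. Levels are given in CPM, counts scaled to a common library size with TMM factors, which correct for differences in RNA composition. They are not divided by gene length, so levels are compared between samples and not between genes. The floor of 3 counts corresponded to between 0.128 and 0.189 CPM in these 6 libraries, and it covers counting error only, since PCR copies are not independent molecules. The 50 most abundant genes took 21.1% ± 0.391 of the counts in intermediate and 16.4% ± 0.467 in full, and mitochondrial genes took 4.27% ± 0.416 and 2.33% ± 0.141 (SD, n = 3 each). Between 21053 and 21313 genes had at least 1 count in an intermediate library, against 22779 to 22937 in a full library.

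The sort marker itself was examined first. Epcam was at 26.7, 17.4 and 12.4 CPM in intermediate replicates 1, 2 and 3 and at 283, 273 and 207 CPM in full replicates 1, 2 and 3. All sets of library values below follow this order. The groups did not overlap, and Epcam RNA was present, at a lower level, in the intermediate libraries (log2 fold change 3.76, SE 0.23, edgeR adjusted p = 8.43e-08, n = 3 per group). Whether cells below the gate carry this RNA, or some Epcam-positive cells were sorted with them, was not tested. BEC had 866 ± 35.6 CPM (SD, n = 3). Cd24a, on which both groups were gated, was at 510, 461 and 361 CPM and then at 1178, 1112 and 931 CPM. It was thus higher in every full library than in any intermediate one (1.27, SE 0.26, edgeR adjusted p = 0.00128), and the full level was close to the 1073 ± 200 CPM of BEC.

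Of 16210 genes tested, 6590 were called different between full and intermediate (40.7%, edgeR's quasi-likelihood test, Benjamini-Hochberg adjusted p under 0.05). There were 3376 genes higher in full (20.8%) and 3214 lower (19.8%), and the counts of every list below stand beside these shares. Numbers were near equal while sizes were not: the median log2 fold change was 1.35 over the genes called higher and -0.67 over those called lower. At least a 2-fold change was seen in 2006 of the higher and 1134 of the lower genes, and at least a 4-fold change in 1149 and 547. Every full library lay above every intermediate library for 4545 of the genes tested, and below for 4378. Groups that do not overlap were therefore common, also among genes not called. The median over all genes tested was 0.01. These directions are relative to the TMM scale. With total counts only, the median over all genes moved to 0.21 and 72.6% of calls were higher in full, against 51.2% with TMM, and a test against a minimum 2-fold change called 1931 genes, of which 64.8% were higher.

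**Figure D1:**
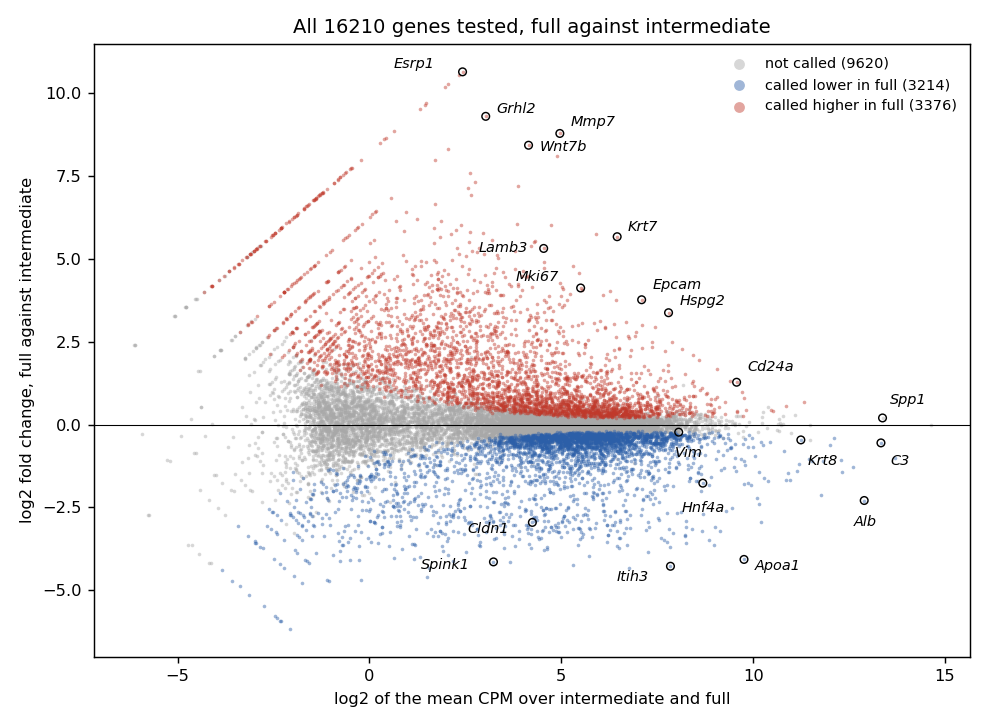
Each point is 1 of the 16210 genes tested, with the log2 of its mean CPM over the 6 libraries on the x axis and the log2 fold change of full over intermediate on the y axis. The 3376 genes called higher (red) reach larger changes than the 3214 called lower (blue), 9620 genes are not called (grey), and named genes are labelled.

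A small set of genes went from at most 3 counts in every intermediate library to a mean of at least 5 CPM in full. There were 15 such genes (0.0925% of those tested), and 0 genes (0%) did the reverse. This count is a description with no test of its own. Among them were Ap1m2, Atp10b, Ctse, Dmbt1, Esrp1, Grhl2, Ildr1, Krt80, Lrrn1, Macc1, Mal, Pimreg, Ugt8a and Wnt7b. Several are parts of polarised epithelia. Grhl2 is a transcription factor that maintains epithelial junctions, Esrp1 is a splicing factor of epithelial cells, Ap1m2 is the epithelial subunit of the AP-1 clathrin adaptor that sorts proteins to the basolateral side, Mal is an apical transport proteolipid, and Ildr1 is a protein of tricellular junctions.

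Wnt7b, a secreted Wnt ligand, had 2, 1 and 2 counts in the intermediate libraries and 824, 988 and 614 counts in the full libraries. The ratio of its pooled counts, corrected for library size, was 366, with a 95% counting interval from 156 to 1127. Grhl2 had 1, 0 and 0 counts and then 383, 461 and 277, and Ap1m2 had 0, 1 and 0 and then 220, 191 and 157. Neither gene had more than 1 count in all intermediate libraries together. Esrp1 had 0 counts in all 3 intermediate libraries and 353, 219 and 171 counts in the full ones, at least 57.0-fold higher against the floor of 3 counts per library. Dmbt1, a mucosal scavenger glycoprotein, and Ildr1 likewise had 0 counts in intermediate, and their full levels were at least 53.9- and 41.3-fold higher. Switched-on genes were mostly still far below their level in BEC. The full mean was between 5.85% (Dmbt1) and 106% (Pimreg, a mitotic regulator) of the BEC mean, with a median of 13.7% over the 15. Full cells and BEC share the Epcam gate and differ in EGFP, and only full cells are described with a Cd24 gate. Whether a few BEC among the sorted full cells contribute to these low levels was not tested.

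The biliary identity list, 22 genes that mark cholangiocytes, had 17 genes higher and 1 lower in full, with a median log2 fold change of 1.09 against 0.01 over all genes. The 17 include the sort markers Epcam and Cd24a. Epcam was the gate between the groups, so its rise adds nothing beyond the sort. Krt19, the keratin used to mark ducts, was at 2.77, 2.96 and 0.906 CPM and rose to 113, 139 and 102 CPM (5.74, SE 0.29, edgeR adjusted p = 1.98e-08). Krt7, its ductal partner from another keratin class, rose from 5.85, 3.40 and 1.08 CPM to 184, 206 and 127 CPM (5.66, SE 0.36, edgeR adjusted p = 1.01e-07). Both keratins separated the groups completely, and intermediate replicate 3 was the lowest library for each. Mmp7, a secreted protease of ductal epithelia, was at 0.377, 0.0548 and 0 CPM and reached 91.3, 53.4 and 41.9 CPM. Itgb4, the hemidesmosome integrin, was at 8.60 ± 4.36 CPM and rose to 127 ± 16.1 CPM (3.89, SE 0.27, edgeR adjusted p = 2.07e-07). The exception was the water channel Aqp1, which fell from 5.02 ± 2.39 to 1.73 ± 0.532 CPM (-1.54, edgeR adjusted p = 0.00699), with overlapping libraries.

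Other members of that list were already high. The secreted phosphoprotein Spp1 was at 11535, 8553 and 9510 CPM in intermediate and 13336, 9929 and 10682 CPM in full (0.20, SE 0.24, edgeR adjusted p = 0.550), and its libraries overlapped. Sox9, the ductal transcription factor, was at 281, 352 and 301 CPM and then 367, 403 and 364 CPM. Those Sox9 libraries did not overlap, yet the difference missed the threshold (0.28, edgeR adjusted p = 0.187) and passed it with replicate numbers blocked (0.29, adjusted p = 0.0380), in the fit of 6 libraries and with total counts. Onecut1, a factor of the developing biliary tree, also missed it (0.51, edgeR adjusted p = 0.142) and passed with the block (adjusted p = 0.0264), in those other settings and with no filter on low counts.

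Among 18 tested regulators of epithelial identity, 13 rose and 2 fell, with a median of 1.82. Spint1, an inhibitor of the surface protease matriptase, was at 5.595, 3.89 and 1.42 CPM and rose to 91.6, 96.4 and 66.5 CPM (4.56, SE 0.29, edgeR adjusted p = 1.02e-07). Klf5, a transcription factor of proliferating simple epithelia, was at 7.04, 1.70 and 2.04 CPM and rose to 46.5, 49.9 and 39.5 CPM (3.68, SE 0.36, edgeR adjusted p = 2.72e-06). Neither gene's groups overlapped, and in both the BEC mean lay higher still, at 246 and 134 CPM. Rab25, a GTPase of apical recycling, rose from 0.176 ± 0.104 to 4.93 ± 1.39 CPM. The 2 that fell were the paralogs of the 2 regulators that had been switched on. Esrp2 fell from 82.0 ± 9.75 to 55.1 ± 2.81 CPM (-0.57, SE 0.10, edgeR adjusted p = 0.000370), and Grhl1 from 5.18 ± 2.19 to 3.08 ± 0.128 CPM (-0.75, SE 0.25, edgeR adjusted p = 0.0277). The Grhl1 call did not hold with total counts, in a fit of the 6 libraries alone, and without intermediate replicate 3 or any of the full replicates, where the adjusted p rose to 0.190 at most.

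**Figure D2:**
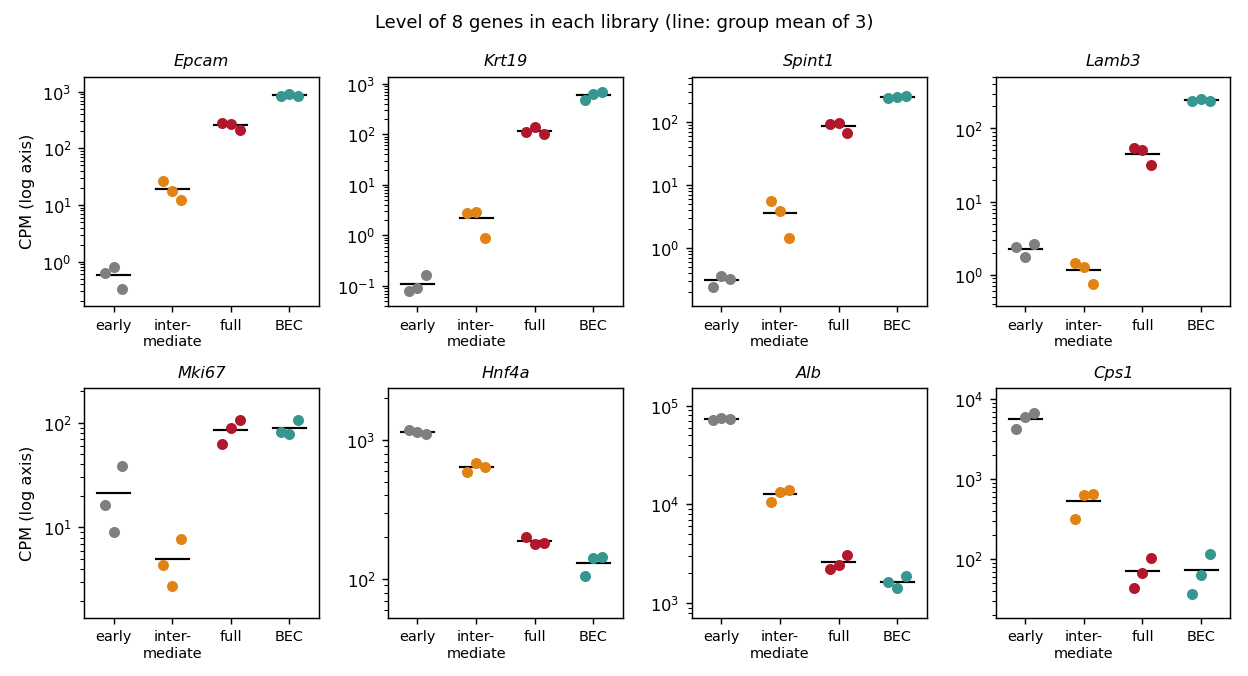
CPM on a log axis for 8 genes, 1 panel each, with 1 point per library and 3 libraries in each of the early, intermediate, full and BEC groups. Epcam, Krt19, Spint1, Lamb3 and Mki67 are higher in all 3 full libraries than in all 3 intermediate ones, and Hnf4a, Alb and Cps1 are lower in all 3.

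Tight junctions seal the space between epithelial cells, and of 25 tested components 13 rose and 3 fell (median 0.42). Over all genes 20.8% were higher and 19.8% lower, so the share that fell was not above that background. The claudins, which set what the seal lets through, moved in both directions. Cldn7 rose from 59.9, 64.4 and 53.6 CPM to 126, 138 and 117 CPM (1.10, SE 0.10, edgeR adjusted p = 1.45e-06). Cldn4 rose from 113 ± 33.1 to 231 ± 39.3 CPM (1.03, edgeR adjusted p = 0.0101), a call lost without intermediate replicate 3 (0.84, edgeR adjusted p = 0.0507). Cldn8 was at 0 counts in every intermediate library and at 3.14 ± 0.184 CPM in full. In contrast Cldn1, a main claudin of hepatocytes, was at 30.7, 32.1 and 38.1 CPM and fell to 4.21, 3.17 and 5.64 CPM (-2.95, SE 0.18, edgeR adjusted p = 7.49e-08). The lipolysis-stimulated receptor Lsr, a tricellular junction protein, also fell (229 ± 12.3 to 141 ± 10.8 CPM, -0.70). The scaffold Tjp1 lay just outside the threshold (0.27, edgeR adjusted p = 0.0544) and inside it with replicate numbers blocked (0.27, adjusted p = 0.0253), with DESeq2 and with the other scalings.

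Adherens junctions and desmosomes hold cells together mechanically, and 12 of 22 tested components rose while 4 fell (median 0.35). Over all genes 20.8% were higher and 19.8% lower, so the share that fell was near that background. E-cadherin (Cdh1) was at 604, 634 and 661 CPM and rose to 1088, 1143 and 1088 CPM (0.81, SE 0.10, edgeR adjusted p = 1.79e-05). Cdh6, a cadherin of kidney and biliary epithelium, rose from 134, 92.4 and 65.4 CPM to 442, 486 and 490 CPM (2.28, SE 0.20, edgeR adjusted p = 1.39e-06). Both cadherins were above intermediate in every full library. The desmosome protein Pkp3 rose from 3.91 ± 0.836 to 18.5 ± 3.88 CPM (2.25), and the adhesion receptor Nectin4 from 0.120 ± 0.126 to 3.73 ± 1.57 CPM (4.93). Its relative Nectin1 fell from 130 ± 14.0 to 64.6 ± 7.64 CPM (-1.01, edgeR adjusted p = 9.78e-05). Desmoplakin (Dsp), the main desmosome linker, was at 551 ± 53.1 and 557 ± 48.6 CPM and was not called (0.01, edgeR adjusted p = 0.936, with a sign that turned when single libraries were left out).

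Of 9 tested simple-epithelial and squamous keratins, 3 rose (Krt19, Krt7 and Krt80) and 2 fell, against 20.8% higher and 19.8% lower over all genes. The list median was -0.11, a sign that turned with total counts only (0.09) and with other filters on low counts, and it lay between -0.20 and -0.04 when 1 library was left out. Krt8, which hepatocytes and cholangiocytes both carry, was at 2344, 3096 and 2986 CPM and then at 1762, 2141 and 2205 CPM. Its groups did not overlap and it was called lower (-0.46, SE 0.15, edgeR adjusted p = 0.0260). The Krt8 call did not hold with total counts or without replicate 2 or 3 of intermediate or replicate 1 of full, where the adjusted p reached 0.173. Krt5, a basal keratin, was near the floor in both groups.

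Of 28 basement membrane and integrin genes, 21 rose and 2 fell (median 0.79). Lama3 and Lamb3 encode chains of laminin-332, the laminin that anchors epithelia to hemidesmosomes. Lama3 was at 0.126, 0.219 and 0.113 CPM and rose to 14.6, 7.98 and 8.31 CPM (6.0, SE 0.37, edgeR adjusted p = 8.43e-08). Lamb3 was at 1.45, 1.26 and 0.736 CPM and rose to 54.8, 50.1 and 31.3 CPM (5.31, SE 0.25, edgeR adjusted p = 1.50e-08). Each full library exceeded each intermediate library many times over. Itgb6, an epithelial integrin that activates TGF-beta, rose from 0.318 ± 0.295 to 12.4 ± 4.30 CPM (5.22).

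The heparan sulphate proteoglycan perlecan (Hspg2) was at 33.0, 46.1 and 38.3 CPM and rose to 304, 497 and 413 CPM (3.37, SE 0.24, edgeR adjusted p = 2.60e-07). Agrin (Agrn), another proteoglycan of that membrane, rose from 1484 ± 34.01 to 2207 ± 59.3 CPM (0.57), the second largest gain in CPM of any gene. Nidogen-1 (Nid1), a linker between laminin and collagen, went the other way, from 373, 467 and 520 CPM to 210, 230 and 260 CPM (-0.96, SE 0.13, edgeR adjusted p = 4.00e-05). Itgb5 fell from 173 ± 2.29 to 133 ± 8.87 CPM (-0.38, edgeR adjusted p = 0.00694). That call did not hold when scaling used only total counts (-0.18, adjusted p = 0.145).

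**Figure D3:**
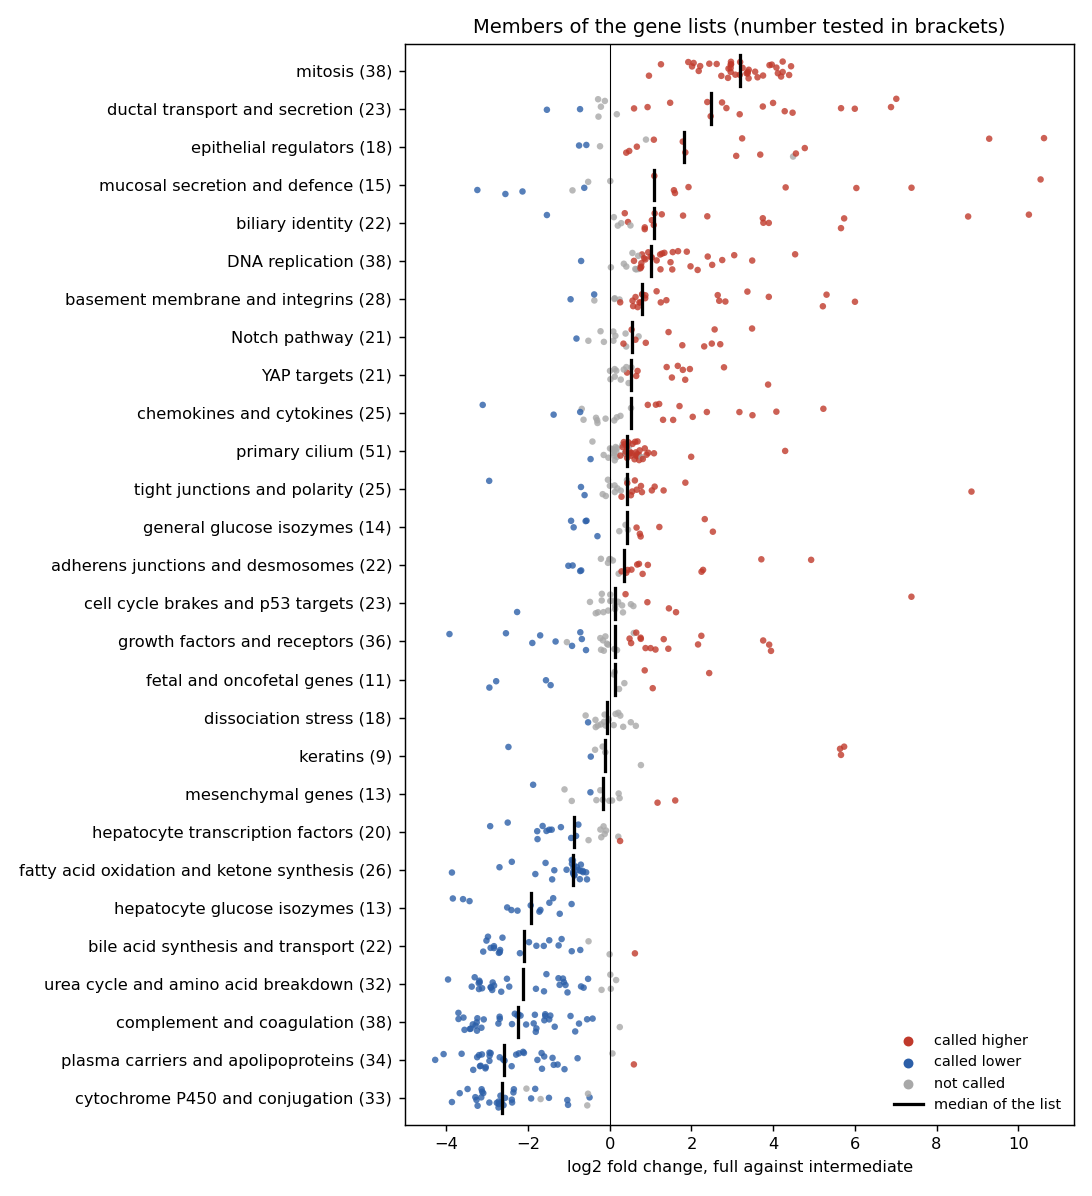
Log2 fold change of full over intermediate for each tested member of 28 gene lists, 1 row per list, with points coloured by call and a bar at each list's median. Medians run from 3.19 for mitosis to -2.65 for cytochrome P450 and conjugation, against 0.01 for all genes.

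Channels and transporters with which ducts modify bile included 16 of 23 tested genes higher and 2 lower (median 2.47). Ano1, a calcium-activated chloride channel, was at 1.01, 0.548 and 0.906 CPM and rose to 61.3, 55.5 and 40.2 CPM (6.0, SE 0.23, edgeR adjusted p = 4.06e-09). The chloride channel Cftr was at 16.1, 13.4 and 6.28 CPM and rose to 130, 198 and 151 CPM (3.75, SE 0.26, edgeR adjusted p = 2.13e-07). The groups were far apart for both channels, and the BEC means were 338 and 251 CPM. The calcium-activated potassium channel Kcnn4 rose from 1.54 ± 0.915 to 33.8 ± 6.50 CPM (4.48). Genes with the largest rises overall included the ion channel genes Gabrp (8.08), Kcnq1 (7.18) and Kcnk1 (6.90), which encode a GABA receptor subunit and 2 potassium channels. The 2 that fell were Aqp1, described above, and Scnn1a, a sodium channel subunit that went from 2.69 ± 0.211 to 1.62 ± 0.375 CPM (-0.73, edgeR adjusted p = 0.0357). The Scnn1a call did not hold with total counts, with no filter on low counts, in the fit of 6 libraries, and without intermediate replicate 2 or 3 or full replicate 1 or 2.

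Of 15 tested mucosal defence genes 8 were higher and 4 lower (median 1.09), against 20.8% higher and 19.8% lower over all genes, so the share lower was near that background. That median fell to 0.57, 0.28 and 0.30 without intermediate replicate 1, intermediate replicate 2 and full replicate 2. Muc1, a transmembrane mucin, was at 0.880, 0.110 and 0.340 CPM and rose to 39.4, 24.9 and 20.9 CPM (6.04, SE 0.43, edgeR adjusted p = 8.52e-07). The polymeric immunoglobulin receptor Pigr, which carries IgA into bile, was at 197, 242 and 264 CPM and fell to 34.5, 33.4 and 51.9 CPM (-2.55, SE 0.19, edgeR adjusted p = 3.52e-07). Both differences exceeded the spread within the groups by a wide margin, in opposite directions. The trefoil peptide Tff3 also fell, from 5.97 ± 1.15 to 0.628 ± 0.229 CPM.

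Cholangiocytes carry a primary cilium that senses bile flow. Of 51 tested cilium genes 32 rose and 1 fell, by modest amounts (median 0.43). Foxj1, a transcription factor for cilium genes, was at 42.6, 59.1 and 58.9 CPM and rose to 102, 121 and 117 CPM (1.08, SE 0.21, edgeR adjusted p = 0.000903). Dync2h1, the retrograde transport motor of the cilium, rose from 27.1 ± 0.881 to 50.6 ± 5.77 CPM (0.90, edgeR adjusted p = 3.88e-05). Nphp4, a transition zone protein, had the largest change on the list, from 0.266 ± 0.274 to 5.41 ± 1.03 CPM. The transport protein Ift20 was lower (26.04 ± 3.80 to 18.8 ± 2.28 CPM, -0.47, edgeR adjusted p = 0.0123). The Ift20 call did not hold with total counts, or without replicate 2 of either group.

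The Notch pathway, through which neighbouring cells instruct biliary fate, had 11 of 21 tested genes higher and 1 lower (median 0.54). Among ligands, Jag2 was at 10.6, 5.37 and 2.38 CPM and rose to 40.2, 39.3 and 28.3 CPM (2.57, SE 0.34, edgeR adjusted p = 4.82e-05), and Jag1 rose from 215 ± 13.5 to 333 ± 46.3 CPM (0.63, edgeR adjusted p = 0.00404). Of the receptors, Notch2 rose from 283 ± 20.3 to 357 ± 15.5 CPM (0.34, edgeR adjusted p = 0.0109), a call lost without intermediate replicate 2 (0.30, edgeR adjusted p = 0.0520). Notch1 was not called (0.40, edgeR adjusted p = 0.253), though it passed with replicate numbers blocked (0.43, adjusted p = 0.0322) and with no filter on low counts (0.41, adjusted p = 0.0419). Lfng, a glycosyltransferase that modifies Notch, rose from 1.48 ± 0.366 to 9.65 ± 0.863 CPM (2.71), and the coactivator Maml2 from 2.84 ± 1.46 to 31.5 ± 5.92 CPM (3.48). Target genes differed among themselves. Heyl rose from 1.45 ± 0.446 to 8.22 ± 1.22 CPM (2.50), whereas Hes1 was at 130, 251 and 285 CPM and then at 198, 325 and 348 CPM. Hes1 was higher in full for each replicate number but overlapped between groups, and missed the threshold (0.39, edgeR adjusted p = 0.412), which it passed when replicate numbers were blocked (0.42, adjusted p = 0.00377). Hes6, an inhibitor of Hes1, fell from 64.1 ± 3.72 to 36.5 ± 4.17 CPM (-0.81).

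YAP and TEAD proteins drive growth genes in ductal cells, and 11 of 21 tested targets rose while 0 fell (median 0.53). For the direction with 0 calls in this list, and in the complement, cytochrome P450, urea cycle and dissociation lists, edgeR at an unadjusted p under 0.05 and DESeq2 also gave 0. Ccn2, a matricellular protein, was at 299, 225 and 244 CPM and rose to 828, 749 and 860 CPM (1.67, SE 0.18, edgeR adjusted p = 6.23e-06). Ankrd1 rose from 53.7, 112 and 132 CPM to 148, 417 and 465 CPM (1.79, SE 0.42, edgeR adjusted p = 0.00369). Replicate 1 was the lowest of both groups for Ankrd1, and the groups did not overlap. Arhgef17, a guanine nucleotide exchange factor, rose from 31.0 ± 13.3 to 215 ± 11.6 CPM (2.80). Igfbp3 rose from 11.4 ± 10.9 to 40.5 ± 15.6 CPM (1.85, edgeR adjusted p = 0.0119) and lost its call without intermediate replicate 2 or full replicate 1.

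Growth factor and receptor genes were mixed, with 15 of 36 tested higher and 9 lower (median 0.12), against 20.8% higher and 19.8% lower over all genes. The median was 0.01 without intermediate replicate 2, 0.08 without intermediate replicate 3 and 0.32 with total counts. The insulin-like growth factor receptor Igf1r was at 5.47, 2.58 and 1.75 CPM and rose to 40.7, 57.0 and 33.1 CPM (3.76, SE 0.31, edgeR adjusted p = 7.01e-07), and Erbb4, a neuregulin receptor, was at 1.32, 1.37 and 1.30 CPM and rose to 17.8, 22.9 and 19.3 CPM (3.90, SE 0.20, edgeR adjusted p = 2.38e-08). Neither receptor's groups overlapped. The ligand Pdgfd rose from 4.56 ± 1.01 to 70.1 ± 9.97 CPM (3.95), and Tgfb3 from 12.1 ± 3.30 to 54.0 ± 1.79 CPM (2.16). The growth hormone receptor Ghr, which the liver uses to control IGF1 output, fell from 106, 103 and 151 CPM to 48.1, 43.4 and 52.0 CPM (-1.33, SE 0.18, edgeR adjusted p = 4.55e-05). Fgf1 and Fgf21 fell as well (-1.70 and -2.54), while Met, the hepatocyte growth factor receptor, was at 176 ± 14.9 and 190 ± 17.8 CPM and was not called (0.11, edgeR adjusted p = 0.417) except with total counts (0.31, adjusted p = 0.0265).

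Chemokine and cytokine genes had 12 of 25 tested higher and 3 lower (median 0.52), against 20.8% higher and 19.8% lower over all genes. The share lower was not above that background. The median was 0.81 without intermediate replicate 1 and 0.29 without full replicate 3. Cxcl5, a neutrophil attractant, was at 6.79, 2.79 and 1.64 CPM and rose to 83.3, 59.5 and 44.2 CPM (4.08, SE 0.39, edgeR adjusted p = 2.30e-06), with a BEC mean of 444 CPM. Tnf rose from 1.05 ± 0.684 to 11.7 ± 3.42 CPM (3.49), and Cxcl2 from 1.82 ± 0.685 to 9.41 ± 2.52 CPM (2.38). Ccl9, Cxcl12 and Cxcl14 were the 3 that fell, and 5 fell without full replicate 3. Ccl9 went from 79.1 ± 14.4 to 9.16 ± 2.21 CPM (-3.11, edgeR adjusted p = 3.39e-08).

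Cell cycle genes rose together. All 38 tested mitosis genes were higher in full (median 3.19), and 29 of 38 DNA replication genes were higher with 1 lower (median 1.01). Mki67, a protein of cycling cells, was at 4.40, 2.74 and 7.70 CPM and rose to 62.8, 88.8 and 106 CPM (4.12, SE 0.46, edgeR adjusted p = 1.07e-05). Kif23, a kinesin of cytokinesis, was at 0.943, 0.767 and 1.36 CPM and rose to 17.95, 24.2 and 24.8 CPM (4.44, SE 0.28, edgeR adjusted p = 8.91e-08). Cenpf, a kinetochore protein, was at 1.07, 0.438 and 2.89 CPM and rose to 20.8, 26.6 and 35.6 CPM (4.23, SE 0.49, edgeR adjusted p = 1.44e-05). The lowest full library was above the highest intermediate library for all 3 genes. The summed level of the tested mitosis genes was 67.8, 54.1 and 92.3 CPM in intermediate and 506, 605 and 695 CPM in full.

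The mitotic genes of full cells were then set beside those of resident ducts. Between BEC and full, where 21.3% of all genes were called, 0 of 38 mitosis genes were called in either direction by edgeR, and their median was -0.03. At an unadjusted p under 0.05, 1 was higher in BEC and 0 were lower, and DESeq2 called 1 higher and 0 lower. BEC libraries summed to between 541 and 752 CPM over the same list. In early cells the sum was 143, 88.8 and 295 CPM, so 2 of the 3 intermediate libraries lay below every early one. For replication the summed level went from 518, 495 and 523 CPM to 1149, 1055 and 1072 CPM. Pole, the leading-strand polymerase, was at 3.33, 5.59 and 5.77 CPM and then at 27.95, 28.2 and 27.9 CPM (2.51, SE 0.32, edgeR adjusted p = 3.12e-05). Uhrf1, which couples DNA methylation to replication, rose from 7.91 ± 1.69 to 53.2 ± 4.57 CPM (2.75), and the repressor E2f7 from 0.172 ± 0.0467 to 4.18 ± 0.798 CPM (4.54).

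**Figure D4:**
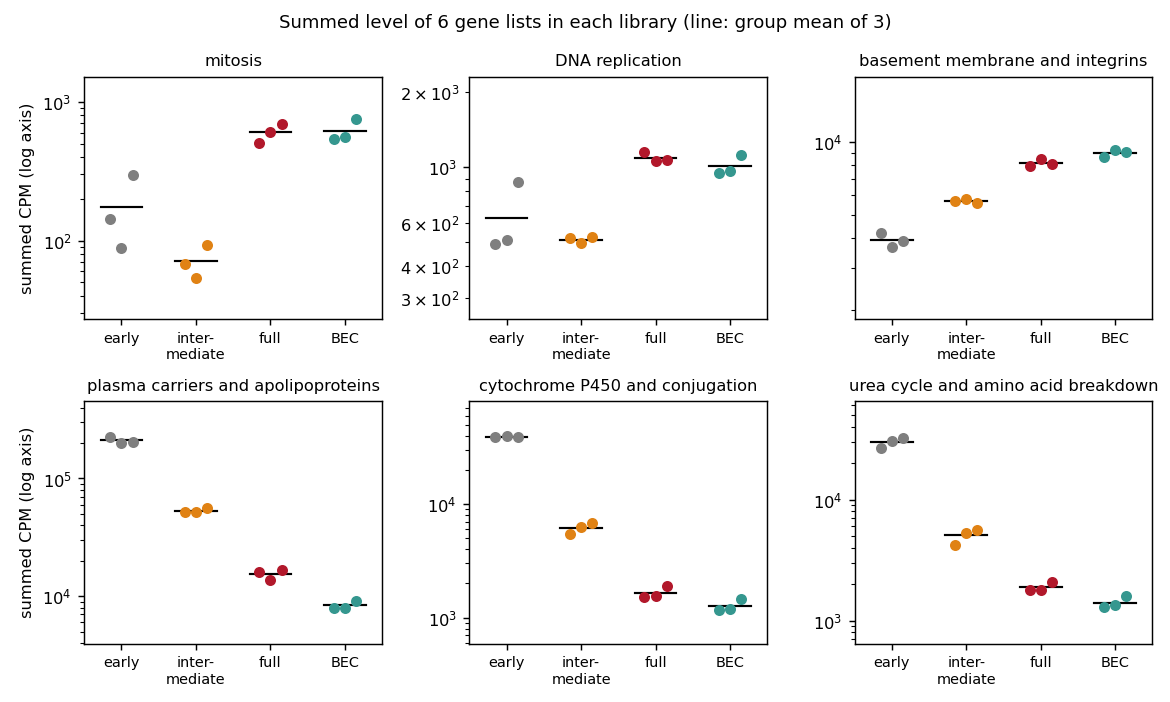
Summed CPM of the tested members of 6 lists, 1 panel per list and 1 point per library for early, intermediate, full and BEC. Mitosis and DNA replication sums are lowest or near lowest in intermediate and rise in full, basement membrane and integrin sums rise, and the means of the 3 hepatocyte lists fall from early through intermediate and full to BEC.

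Mitotic genes as a class are known to be controlled through 2 short promoter elements, the CHR (letters TTTGAA) and the CCAAT box (letters CCAAT), and replication genes through E2F sites (letters TTCCCGC). Promoters of 300 bases, from 250 before to 50 after the start, were available from RefSeq on build GRCm38.p6 for 32 of 38 mitosis genes and 31 of 38 replication genes. A search of both strands found the CHR letters in 23 of 32 mitosis promoters (71.9%), against 18.1% of all 27025 mouse promoters of that length and 12.3% of the 11575 promoters of genes tested. The CCAAT letters were in 24 (75.0%, against 37.9% and 38.5%), and both elements in 19 (59.4%, against 7.12% and 5.05%). The CCAAT letters were also in 20 of 31 replication promoters (64.5%), with the CHR letters in 6 (19.35%) and both elements in 5 (16.1%). The E2F letters were in 14 of 31 replication promoters (45.2%, against 4.66% and 8.22%) and in 0 of 32 mitosis promoters. A match is a description and not evidence of binding, and the absence of a match says only that those letters are not in the window. Promoters were listed for 71.4% of genes tested, 74.1% of those called higher and 76.7% of those called lower, too few for a check over whole sets. Among genes called higher with a promoter, the CHR letters were in 11.95% and the CCAAT letters in 37.9%, close to the shares over genes tested.

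Promoters of 4 mitosis genes that hold both elements and were called higher are shown as examples with large rises. The choice left out the genes of a chromosome, so they need not be the largest rises of the list. Each promoter is read 5′ to 3′ on the strand of its gene, with CHR and CCAAT letters, on either strand, in capitals. Their positions on GRCm38.p6 are chr9:61946750-61947049 on the minus strand (Kif23), chr1:189688037-189688336 on the minus strand (Cenpf), chr7:135716330-135716629 on the minus strand (Mki67) and chr15:102296043-102296342 on the plus strand (Espl1). Espl1 encodes separase, the protease that releases sister chromatids, and rose from 0.781 ± 0.297 to 12.2 ± 2.74 CPM (3.97).
Kif23: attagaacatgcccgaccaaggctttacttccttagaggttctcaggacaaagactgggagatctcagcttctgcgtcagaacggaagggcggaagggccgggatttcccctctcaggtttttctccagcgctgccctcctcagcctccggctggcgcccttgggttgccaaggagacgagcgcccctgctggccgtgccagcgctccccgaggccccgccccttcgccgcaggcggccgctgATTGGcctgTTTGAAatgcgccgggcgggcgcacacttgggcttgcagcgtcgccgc
Cenpf: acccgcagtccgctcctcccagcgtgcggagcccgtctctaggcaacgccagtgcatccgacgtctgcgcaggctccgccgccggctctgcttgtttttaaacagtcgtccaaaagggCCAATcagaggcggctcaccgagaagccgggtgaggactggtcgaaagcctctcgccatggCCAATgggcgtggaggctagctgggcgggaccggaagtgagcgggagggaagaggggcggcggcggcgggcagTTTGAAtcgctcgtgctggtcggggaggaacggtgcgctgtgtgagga
Mki67: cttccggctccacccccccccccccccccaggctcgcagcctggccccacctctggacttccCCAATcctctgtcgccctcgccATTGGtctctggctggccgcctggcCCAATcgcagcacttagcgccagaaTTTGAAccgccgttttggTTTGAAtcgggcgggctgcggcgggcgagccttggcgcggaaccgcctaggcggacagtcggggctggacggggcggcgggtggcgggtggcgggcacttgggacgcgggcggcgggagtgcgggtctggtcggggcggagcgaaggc
Espl1: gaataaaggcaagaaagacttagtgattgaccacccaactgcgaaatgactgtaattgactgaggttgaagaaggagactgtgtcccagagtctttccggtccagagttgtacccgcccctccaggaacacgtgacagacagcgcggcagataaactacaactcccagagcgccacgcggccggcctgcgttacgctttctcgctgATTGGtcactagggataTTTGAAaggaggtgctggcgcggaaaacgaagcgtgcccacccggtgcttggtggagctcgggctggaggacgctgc

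Brakes of the cell cycle and p53 targets changed little as a list, with 5 of 23 genes higher and 1 lower (median 0.13, against 20.8% higher among all genes). The median ranged from 0.03 without intermediate replicate 3 to 0.27 without intermediate replicate 1, and was 0.041 and 0.087 without intermediate replicate 2 and full replicate 3. With total counts only, 11 were higher. Rbl1, a pocket protein that restrains E2F, rose from 9.40 ± 1.88 to 25.7 ± 1.94 CPM (1.45, edgeR adjusted p = 0.000123). Cdkn2a, the Ink4a and Arf locus, was at 0 counts in all intermediate libraries and at 1.62, 0.669 and 1.09 CPM in full. Gdf15, a stress-induced cytokine, fell from 111 ± 41.4 to 23.2 ± 11.1 CPM (-2.27, edgeR adjusted p = 0.000635). Cdkn1a (p21) was at 89.3 ± 17.6 and 63.8 ± 7.06 CPM and was not called (-0.48, edgeR adjusted p = 0.193), though it passed in the fit of 6 libraries (edgeR adjusted p = 0.0252) and with no filter on low counts.

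In each of 7 lists of hepatocyte functions most members fell. Plasma carriers and apolipoproteins had 32 of 34 tested genes lower and 1 higher (median -2.59, against 0.01 over all genes). Albumin (Alb), the main plasma carrier, was at 10495, 13338 and 14059 CPM and fell to 2237, 2419 and 3089 CPM (-2.29, SE 0.18, edgeR adjusted p = 4.17e-07). Apoa1, the structural protein of HDL, was at 1492, 1732 and 1689 CPM and fell to 87.8, 86.6 and 119 CPM (-4.07, SE 0.28, edgeR adjusted p = 1.96e-07). Itih3, a heavy chain that stabilises hyaluronan, was at 502, 357 and 452 CPM and fell to 26.4, 16.4 and 25.0 CPM (-4.27, SE 0.25, edgeR adjusted p = 7.49e-08). The groups were separate for all 3 genes. The summed level of the list was between 51597 and 56226 CPM in intermediate and between 13850 and 16820 CPM in full. Igf1, the growth factor that the liver secretes, was the exception and rose from 71.7 ± 18.4 to 108 ± 14.7 CPM (0.59, edgeR adjusted p = 0.0152). Igf1 libraries overlapped, and its call was lost without intermediate replicate 1 or 2 or full replicate 2 or 3, with adjusted p up to 0.0814.

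Complement and coagulation genes had 37 of 38 tested genes lower and 0 higher (median -2.25). Antithrombin (Serpinc1) was at 348, 395 and 443 CPM and fell to 29.2, 28.5 and 43.2 CPM (-3.55, SE 0.25, edgeR adjusted p = 2.12e-07). Plasminogen (Plg) fell from 566 ± 88.5 to 47.3 ± 18.2 CPM (-3.58), and the terminal complement gene C6 from 45.5 ± 8.43 to 3.49 ± 1.36 CPM (-3.70). The central complement component C3 fell far less, from 12245 ± 1021 to 8340 ± 141 CPM (-0.55, SE 0.13, edgeR adjusted p = 0.00308), and its full level was close to that of BEC, 8259 ± 398 CPM. The only gene not called was Masp1, a lectin pathway protease at 162 ± 41.6 and 192 ± 20.3 CPM, which was called higher without intermediate replicate 1 (0.48, edgeR adjusted p = 0.0121) and with total counts (0.45, edgeR adjusted p = 0.0364). Cfhr2, a factor H related gene, had the largest fall (-4.31) among called genes that reached a mean of 10 CPM and did not overlap, but it belongs to a family of near copies whose reads may be shared, so its level is uncertain.

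Transcripts of drug metabolism fell, with 29 of 33 tested cytochrome P450 and conjugation genes lower and 0 higher (median -2.65). Carboxylesterase Ces1c was at 290, 365 and 470 CPM and fell to 28.9, 28.01 and 44.0 CPM (-3.48, SE 0.28, edgeR adjusted p = 5.30e-07), while its neighbour Ces1d was at 45.6, 68.7 and 116 CPM and then at 44.3, 52.4 and 62.8 CPM. Ces1d overlapped between groups and was not called (-0.53, edgeR adjusted p = 0.122), but it passed when replicate numbers were blocked (-0.47, adjusted p = 0.0213), without intermediate replicate 1 (-0.80, adjusted p = 0.0105) and with no filter on low counts (adjusted p = 0.00616). Reads may be shared within the Ces1, Cyp2 and Ugt families, so single members are uncertain.

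The urea cycle and amino acid breakdown list had 28 of 32 genes lower and 0 higher (median -2.13), with 1 higher when scaled by total counts. Cps1, the entry enzyme of the urea cycle, was at 321, 639 and 663 CPM and fell to 43.7, 67.4 and 104 CPM (-2.92, SE 0.42, edgeR adjusted p = 9.69e-05). For Cps1 full replicate 1 was the lowest and full replicate 3 the highest, and all full libraries were below all intermediate ones. Otc fell from 40.5 ± 10.01 to 4.39 ± 1.18 CPM (-3.21), and the histidine pathway gene Uroc1 from 99.0 ± 30.3 to 6.37 ± 3.07 CPM (-3.96). Mat2a, the methionine adenosyltransferase of non-hepatocyte tissues, was at 177 ± 15.6 and 154 ± 17.5 CPM and was not called (-0.20, edgeR adjusted p = 0.225).

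Bile acid handling had 19 of 22 tested genes lower and 1 higher (median -2.09). The bile salt export pump Abcb11 was at 32.8, 64.6 and 53.9 CPM and fell to 3.32, 7.22 and 8.18 CPM (-3.02, SE 0.34, edgeR adjusted p = 1.01e-05). RNA of the uptake transporter Slco1b2 fell from 71.5 ± 18.8 to 10.02 ± 3.49 CPM (-2.83), and that of the bile acid ligase Slc27a5 from 42.7 ± 3.08 to 4.99 ± 0.639 CPM (-3.10). Abcc4, a basolateral exporter, was the gene that rose, from 83.5 ± 10.7 to 128 ± 2.40 CPM (0.62, edgeR adjusted p = 0.00460).

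All 26 fatty acid oxidation genes were lower (median -0.89), as were all 13 genes of hepatocyte glucose metabolism (median -1.93). Pck1, the gatekeeper of gluconeogenesis, was at 332, 223 and 311 CPM and fell to 17.95, 15.6 and 26.9 CPM (-3.84, SE 0.29, edgeR adjusted p = 3.38e-07). The glycolytic genes shared by most tissues did not move as a block, with 6 of 14 higher and 5 lower (median 0.42), against 20.8% higher and 19.8% lower over all genes. Hexokinase Hk1, the form that hepatocytes lack, rose from 6.61 ± 2.36 to 37.9 ± 4.50 CPM (2.52, edgeR adjusted p = 2.00e-06), and Pkm, the pyruvate kinase of non-hepatocyte tissues, from 20.7 ± 4.48 to 48.0 ± 4.11 CPM (1.21). Ldha fell from 318 ± 11.8 to 172 ± 19.6 CPM (-0.88) and Gapdh from 1016 ± 49.97 to 675 ± 35.6 CPM (-0.59).

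How far each hepatocyte gene had to go to the level of resident ducts differed. BEC and full share the full libraries with this comparison, so the values are set side by side and not tested against it. Some genes in full were within the replicate spread of BEC, with Cps1 at 71.7 ± 30.4 and 72.8 ± 40.8 CPM and Serpinc1 at 33.6 ± 8.25 and 34.8 ± 13.5 CPM (SD, n = 3). Others remained well above BEC. The plasma glycoprotein fetuin-A (Ahsg) was at 1293 ± 101 CPM in full and 180 ± 33.2 CPM in BEC (-2.85, edgeR adjusted p = 4.91e-08), Nid1 at 233 ± 25.3 and 48.9 ± 4.42 CPM (-2.25), and Masp1 at 192 ± 20.3 and 30.9 ± 4.78 CPM (-2.64). Of the plasma list 18 of 34 genes, and of the complement and coagulation list 29 of 38, were called lower in BEC than in full, against 10.6% of all genes. Of 33 cytochrome P450 and conjugation genes 7 were lower and 3 higher, closer to the 10.6% lower and 10.7% higher over all genes. What share of the hepatocyte transcripts in the EGFP-negative BEC libraries is their own was not tested.

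**Figure D5:**
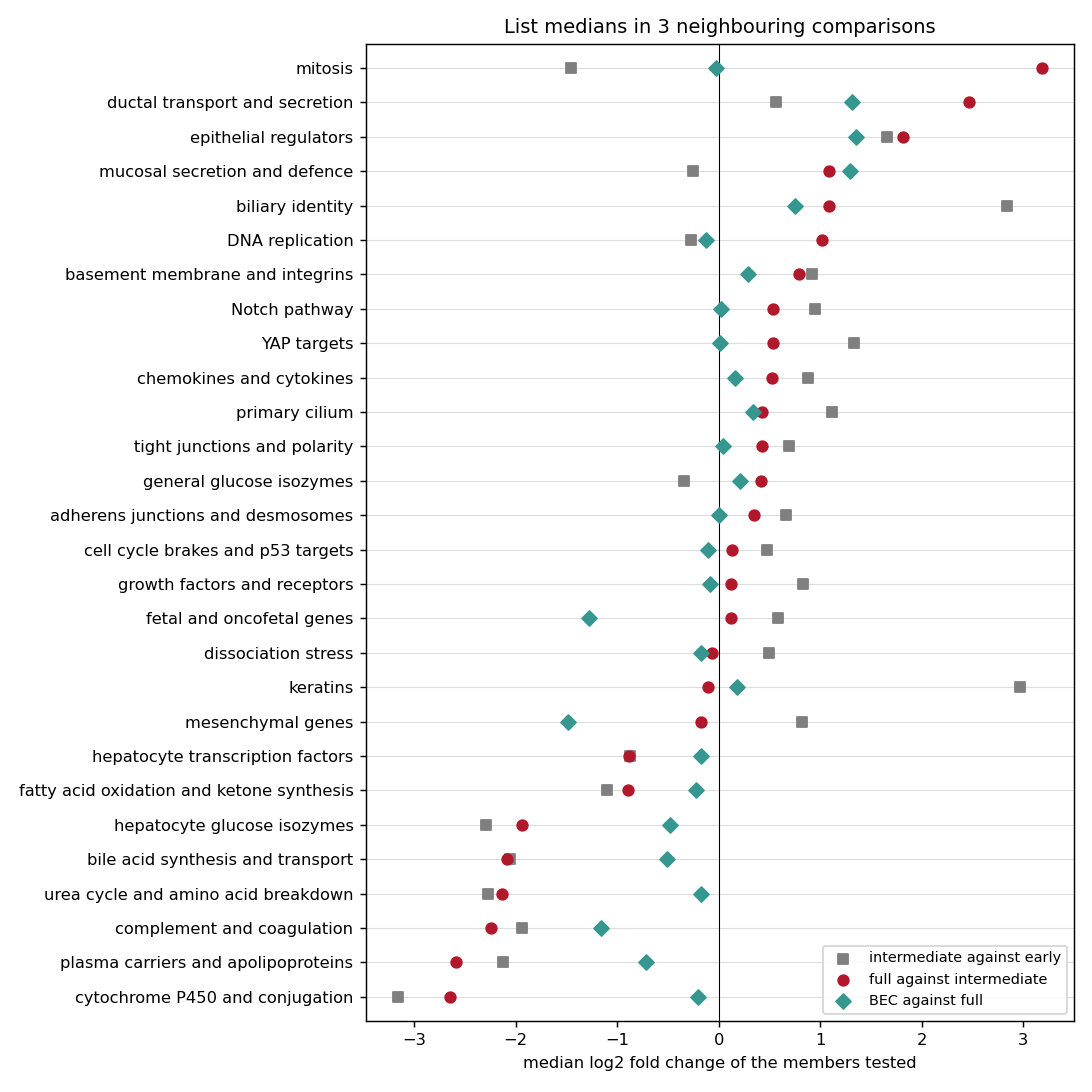
Median log2 fold change of each list for 3 contrasts, intermediate against early, full against intermediate and BEC against full, which share libraries. Mitosis goes from -1.46 to 3.19 to -0.03, cytochrome P450 and conjugation from -3.16 to -2.65 to -0.21, and keratins from 2.97 to -0.11 to 0.18.

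Among 20 hepatocyte transcription factors, 12 were lower and 1 higher (median -0.88). Hnf4a, the master regulator of hepatocyte identity, was at 585, 683 and 644 CPM and fell to 200, 179 and 183 CPM (-1.77, SE 0.12, edgeR adjusted p = 1.96e-07). Creb3l3, a factor for acute phase and lipid genes, was at 258, 275 and 258 CPM and fell to 81.8, 68.5 and 80.7 CPM (-1.78, SE 0.10, edgeR adjusted p = 5.31e-08), and BEC had 9.58 ± 0.820 CPM. Ppara, the fatty acid sensing receptor, fell from 37.9 ± 7.52 to 6.71 ± 0.842 CPM (-2.50, SE 0.21, edgeR adjusted p = 7.62e-07). Within each group these factors varied little and the groups were clearly apart. Foxa3 fell (-1.64), while its relative Foxa2, which ducts also carry, was at 69.5 ± 6.05 and 63.8 ± 3.82 CPM and was not called (-0.12, edgeR adjusted p = 0.455). Prox1 was not called either (-0.15, edgeR adjusted p = 0.401), and lay between -0.25 and -0.05 when 1 library was left out. With total counts the signs of Foxa2 and Prox1 turned, still not called. Rora was called higher (0.25, edgeR adjusted p = 0.0370), but not with no filter on low counts nor without any of the intermediate replicates or full replicate 1 or 2, with adjusted p up to 0.179.

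Mesenchymal genes did not change together, with 2 of 13 tested higher and 2 lower (median -0.17), near the 20.8% and 19.8% over all genes. The median was -0.10 without intermediate replicate 1 and -0.28 without full replicate 1. With total counts only 4 were higher and 1 lower (median 0.03), and with no filter on low counts 2 were higher and 4 lower. The intermediate filament gene Vim was at 332, 289 and 243 CPM and then at 266, 223 and 248 CPM, overlapping and not called (-0.23, edgeR adjusted p = 0.226). It was 10.9 ± 2.52 CPM in BEC (-4.49 against full, edgeR adjusted p = 4.05e-09). N-cadherin (Cdh2), which hepatocytes carry, was also far lower in BEC, with 223 ± 10.7 CPM in intermediate, 259 ± 8.70 in full and 33.0 ± 6.52 in BEC, and was called higher in full than in intermediate only in the fit of 6 libraries and with total counts. Zeb2, a repressor of epithelial genes, rose from 9.70 ± 1.46 to 29.4 ± 1.47 CPM (1.60, edgeR adjusted p = 0.000130) while BEC had 3.07 ± 0.975 CPM. Its relative Zeb1 fell from 45.3 ± 3.05 to 32.6 ± 4.02 CPM (-0.47, edgeR adjusted p = 0.00423). The Zeb1 call did not hold with total counts (-0.27, adjusted p = 0.0658).

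Of 11 tested fetal and oncofetal genes, 3 were higher and 4 lower (median 0.12), where 20.8% of all genes were higher and 19.8% lower. The median turned without intermediate replicate 3 (-0.015) or full replicate 1 (-0.025) and reached 0.41 without intermediate replicate 1. Hmga2, a chromatin protein of embryonic cells, rose from 1.15 ± 0.805 to 6.17 ± 1.18 CPM (2.43, edgeR adjusted p = 0.00205), with 0.545 ± 0.204 CPM in BEC, and the surface glycoprotein Cd44 rose from 256 ± 99.1 to 530 ± 63.0 CPM (1.05, edgeR adjusted p = 0.00895). The fetal serum protein Afp fell from 7.25 ± 1.53 to 2.65 ± 0.602 CPM (-1.45), and the surface antigen Ly6d from 164 ± 27.0 to 21.2 ± 4.88 CPM (-2.95, edgeR adjusted p = 5.60e-07). Genes induced by tissue dissociation, which report on handling before the sort, had 0 of 18 higher and 1 lower (median -0.07). The median turned without intermediate replicate 3 (0.20) or full replicate 1 (0.25). Leaving out any of the 6 libraries other than intermediate replicate 1 gave 0 lower. With the replicate block 2 were higher and 5 lower. Egr1 was at 680, 1221 and 1398 CPM and then at 1105, 1764 and 1850 CPM, with replicate 1 the lowest of both groups, and passed only with replicate numbers blocked (0.54, adjusted p = 0.000135) or with no filter on low counts.

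A last comparison asked whether the change at this step differed from the change at the step before, intermediate against early, which shares the intermediate libraries. The difference between the 2 steps was called for 2665 genes (16.4%, edgeR's quasi-likelihood test of the contrast), 915 with a more positive and 1750 with a more negative change at the later step (5.64% and 10.8%). Without intermediate replicate 2 the number called was 1676, and with total counts only 6139. The mitosis list had 37 of 38 genes more positive and 0 more negative, and DNA replication 19 and 0 of 38. The cilium list had 0 and 22 of 51, and YAP targets 1 and 11 of 21. Where edgeR called 0 genes of these lists, an unadjusted p under 0.05 and DESeq2 also gave 0. Because an intermediate value high by chance lowers 1 step and raises the other, these counts are read with the levels of all groups. Lamb3 was at 2.23 ± 0.448 CPM in early, 1.15 ± 0.368 in intermediate and 45.4 ± 12.4 in full (difference 6.28, SE 0.54, edgeR adjusted p = 4.57e-06). The retinoic acid synthesis gene Aldh1a2 was at 1.07 ± 0.376, 0.433 ± 0.282 and 11.6 ± 5.09 CPM (5.93, edgeR adjusted p = 0.00236), and the immune checkpoint ligand Vtcn1 at 1.68 ± 0.412, 0.616 ± 0.358 and 12.7 ± 3.49 CPM (5.77, edgeR adjusted p = 0.000195). These genes were thus near or below their early level in intermediate cells.

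Among the genes with the most negative difference, several had their highest mean in the intermediate group. Rad51b, a recombination factor, was at 19.9 ± 1.81 CPM in early, 95.5, 93.8 and 81.3 CPM in the intermediate libraries and 27.95, 18.6 and 32.0 CPM in the full ones (-3.96, SE 0.32, edgeR adjusted p = 2.71e-06). The transcription factor Irx3 was at 7.16 ± 3.34 CPM in early, 33.0 ± 7.66 in intermediate and 7.005 ± 3.66 in full (-4.44, edgeR adjusted p = 0.000308). Spink1, a secreted trypsin inhibitor, was at 17.6 ± 1.91 CPM in early and 17.8 ± 3.25 in intermediate and fell to about 1 CPM (± 0.659) in full. Flt1, a VEGF receptor, was at 11.6 ± 2.50, 17.4 ± 4.67 and 1.59 ± 0.632 CPM. Neither of these 2 genes was called at the step before.

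Markers of other cell types were examined because sorted gates can hold other cells, and their counts stand beside 20.8% called higher and 19.8% called lower over all genes. No member of the neutrophil list or the T and NK cell list was abundant enough to be tested. Of 12 tested stellate cell and fibroblast markers, 1 rose and 1 fell, while 10 had a negative log2 fold change (median -0.84). Their sum, 1842 to 2533 CPM in intermediate and 2994 to 3463 CPM in full, was nearly all Rgs5, a regulator of G-protein signalling at 41.0 ± 7.99 CPM in early, 1970 ± 428 in intermediate, 3185 ± 228 in full and 1918 ± 305 in BEC. The collagen gene Col1a1 was at 19.7 ± 12.1 and 16.7 ± 3.92 CPM in intermediate and full and was not called, and Lrat was at or under 1.87 CPM in each of the 6 libraries. Without intermediate replicate 3, whose collagen level was the highest, the sign of Col1a1 turned (0.34, edgeR adjusted p = 0.586). Macrophage markers had 1 of 10 higher, Csf1r, from 24.6 ± 0.0479 to 67.8 ± 6.32 CPM, and 0 lower by edgeR, with 1 lower at an unadjusted p under 0.05 and 1 called lower by DESeq2. The log2 fold change was positive for 8 of the 10 (median 0.59), and their sum ranged from 30.5 to 40.9 and from 66.8 to 94.8 CPM. Of 11 endothelial markers 1 was called higher and 3 lower, 10 had a negative log2 fold change and the median was -1.57. Their sums of 64.8 to 77.2 and 77.3 to 85.6 CPM were mostly Flt4, the 1 called higher (45.7 ± 11.2 to 67.4 ± 5.46 CPM). Mesothelial markers had 3 of 5 higher, with sums of 2.45 to 3.73 and 29.9 to 45.3 CPM, led by mesothelin (Msln, 0.880 ± 0.164 to 21.4 ± 6.07 CPM). Msln was at 198 ± 13.2 CPM in BEC, and the defining marker Upk3b was under 1 CPM in each of the 6 libraries. In the B cell, platelet and erythroid lists 1, 2 and 1 genes could be tested. Jchain, the joining chain of secreted antibodies, rose from 0.459 ± 0.331 to 4.09 ± 1.77 CPM (3.17, edgeR adjusted p = 0.00144), with at most 4 counts in each of the 6 libraries for the other B cell markers. The platelet chemokine Pf4 rose from 0.153 ± 0.213 to 2.06 ± 0.429 CPM (3.68, edgeR adjusted p = 0.000283), and Ppbp and Gp9 had 0 counts. Alas2, the heme synthesis enzyme of red cell precursors, fell from 2.47 ± 0.526 to 0.571 ± 0.313 CPM (-2.11, edgeR adjusted p = 0.00174). The part these markers have in the results was not tested.

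Gain and loss were also summed in CPM. Over called genes, the group mean of genes called higher rose by 70178 CPM and that of genes called lower fell by 194607 CPM. The gap between the 2 sums is set by the TMM factors, which are larger in full libraries and so give them a smaller summed CPM, and it is no measure of RNA amount. Loss was concentrated, with 15 genes holding 29.3% of it, and gain was spread, with 15 genes holding 11.1%. The main losers were Alb, the mitochondrial gene mt-Co1, Apoe and transferrin (Trf), which fell from 7428 ± 1222 to 2730 ± 695 CPM (-1.44, edgeR adjusted p = 5.73e-05). Of 13 protein-coding mitochondrial genes 11 fell and 0 rose, with log2 fold changes from -1.41 to -0.48. The main gainers were Rgs5, Agrn, Cd24a, Igfbp7 and Ccn2. Among others were the cytoskeletal linker Flna (1196 ± 67.8 to 1628 ± 18.99 CPM, 0.44, edgeR adjusted p = 0.00177) and the amyloid precursor App (569 ± 48.1 to 1114 ± 43.6 CPM, 0.97).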

How the data were processed

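RNA was measured in 12 libraries of sorted mouse liver cells, grouped by sample titles, and the comparison uses the 3 full and 3 intermediate libraries. The unit is the raw read count, as deposited by the authors for 53599 gene symbols, with 0 unnamed rows and 0 columns that matched no sample. Per the submitters' processing notes, the tools included STAR 2.7.10b, featureCounts 2.0.1 and DESeq2, and the build was GRCm39. Whether counting used strand, and how it treated multi-mapping reads, is not given in the sources used here, so near copies and overlapping genes are uncertain. A second table of deposited size-factor-scaled values was not used here.

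Genes were kept by filterByExpr, which left 16210. Counts were scaled by TMM, and 1 quasi-likelihood fit of all 12 libraries (edgeR 4.0.16, R 4.3.3, limma 3.58.1) with a term per group gave every contrast. Sharing the fit uses all groups to estimate the spread (common biological coefficient of variation 14.8%). Calls used a Benjamini-Hochberg adjusted p under 0.05 over all genes tested, also where a result names edgeR. A gene counted as switched on had at most 3 counts in each intermediate library and a mean of at least 5 CPM in full. Alternatives covered DESeq2 1.42.0, other scalings and filters, a replicate block, a fit of 6 libraries, a minimum 2-fold change and leaving out each library. Figures used Python 3.11.15 and matplotlib 3.10.9.

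The comparison, the gene lists and the rule for named genes were chosen with earlier results of these data known. The rule named the sort markers and, in each list, up to 5 called genes with the largest change in each direction and up to 3 not called. It added the 15 largest changes in each direction with at least 10 CPM and no overlap, the switched-on genes, the 15 largest gains and losses in CPM, the 8 largest differences between the steps in each direction, and exceptions within lists. Cftr, Jag1, Notch2, Cps1, Espl1, Col1a1, Lrat and Upk3b fall outside it and were chosen after their values were seen. Some genes that the rule named are not reported here.

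Both groups carry replicate numbers 1 to 3 in the labels. Across genes, each library's deviation from its group mean correlated with r of 0.322, 0.137 and 0.296 between same-numbered libraries, against -0.27 to 0.00 for the others. Same-numbered libraries thus tended to deviate together. Deviations from a group mean cancel within the group, so the lower values for the others follow in part from this. What the numbers mark is not given in the sources used here. The main fit does not pair them, and the replicate block does. Replicates of a group differed beyond counting error (chi-square per degree of freedom 8.08 to 28.3). On simulated counts of 16210 genes for this comparison, 92% of genes changed 2-fold and 100% of those changed 4-fold were recovered with the right sign, and 5.88% of 204 calls fell on unchanged genes. Promoter sequences came from a RefSeq table on GRCm38.p6, matched by symbol.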

Additional observations from a re-analysis of the deposited data

How the results depend on the processing

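The count of called genes (6590) stayed within 1.5 times its value under every alternative except a test against a minimum 2-fold change, which called 1931 (1251 higher and 680 lower, 64.8% higher). Total counts in place of TMM gave 5236 higher and 1976 lower (72.6% higher) and 6139 genes for the difference between the steps. With the replicate block, 7300 genes were called and 3497 for the difference between the steps. The block also called Sox9, Onecut1, Notch1, Hes1, Tjp1, Ces1d and Egr1 and took away no call of a named gene. Leaving out 1 library gave 5276 to 6143 calls, 2774 to 3157 higher and 2473 to 2986 lower, and 1676 to 2242 for the difference between the steps, against 2665. The 15 switched-on genes became 9 with at most 1 count per library, 40 with a mean of at least 2 CPM and 7 with at least 10 CPM, and 14 to 22 when 1 library was left out. No gene was switched off under any of these rules.

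List medians changed sign in a few cases. Keratins (-0.11) went to 0.093 with total counts, 0.34 with no filter on low counts and 0.35 with a mean of at least 50 counts, and mesenchymal genes (-0.17) to 0.030 with total counts. Dissociation stress genes (-0.07) went to 0.0013 with the replicate block and 0.14 with total counts, and ranged from -0.31 to 0.25 when 1 library was left out. Fetal and oncofetal genes (0.12) ranged from -0.025 to 0.41 in the same way. Among named genes, Foxa2 (0.079), Mat2a (0.0017) and Prox1 (0.051) turned with total counts. Leaving out 1 library moved Dsp between -0.049 and 0.088, and Col1a1 between -0.57 and 0.34. None of these genes was called in either direction. Causes were not tested. Depth limits genes under about 0.189 CPM, where 3 counts are the floor.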
